A study of Homo sapiens with 6 samples.

Results

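The genes described here take heme apart and handle the iron that it releases. They are HMOX1 and HMOX2 (heme oxygenases), BLVRA and BLVRB (biliverdin reductases), BACH1 (a heme-binding transcriptional repressor), FTH1 and FTL (the ferritin chains), TFRC (the transferrin receptor), and ACO1 and IREB2 (the iron regulatory proteins). The members were named for these roles, and all 10 are rows of the deposited matrix of 11048 genes, with a value above 0 in each of the 6 libraries. HMOX1 was chosen by its measured fold changes with both compounds and its difference between them in these same libraries, so its values are given as a description with no test. The other 9 were tested together with every gene of the matrix, and they were also named with earlier results of these data in view.

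The RNA came from MM1.S cells, an established human multiple myeloma line, treated for 6 h with DMSO (the vehicle), 3 µM CCF642 or 3 µM CCF642-34, with 2 libraries in each group. CCF642 is an inhibitor of the protein disulfide isomerase PDIA1, an enzyme that forms disulfide bonds in the endoplasmic reticulum, and CCF642-34 is an analogue of it. All 6 libraries were of this single line, and the labels do not say whether the replicates of a group were separate cultures, so that the p-values measure the spread between these libraries, which may be technical. Library totals lay between 20567313 and 28459677 reads, of which the listed genes held 99.9%. Values are given as CPM, the reads of a gene scaled to a common total per library.

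Heme oxygenase opens the heme ring to biliverdin, carbon monoxide and free iron, and biliverdin reductase turns biliverdin into bilirubin. BACH1 pairs with small MAF proteins on antioxidant response elements, where it represses HMOX1 and ferritin genes, and it leaves the DNA when heme binds it, whereas NRF2 (NFE2L2) with the same small MAF partners activates them. The iron regulatory proteins bind hairpins called iron-responsive elements when iron is scarce, which blocks the translation of ferritin mRNA and protects TFRC mRNA from decay.

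All 10 plasma cell markers looked for were listed, with a summed level of 9900 to 10000 CPM with DMSO, 7020 to 7050 CPM with CCF642 and 7870 to 7910 CPM with CCF642-34. JCHAIN made up most of the difference (4320 CPM in both DMSO libraries, 1790 and 1870 CPM with CCF642, 2340 and 2360 CPM with CCF642-34). SDC1 was also lower with both compounds (870 and 851 CPM with DMSO, 239 and 252 with CCF642, 383 and 359 with CCF642-34). TNFRSF17 was lower likewise (170 and 162, 72.7 and 71.2, 84.9 and 91.7 CPM), as were CD38, MZB1 and POU2AF1. In contrast, IRF4 was higher with both compounds (657 to 682 CPM with DMSO, 1130 to 1360 CPM with either), as was SLAMF7 (672 to 677 and 781 to 800 CPM). PRDM1 was slightly higher with CCF642 only (447 and 471 CPM, 402 to 404 with DMSO), and XBP1 stayed within 1310 to 1390 CPM. The part of these markers in the results was not tested. Of 10 erythroid markers only HBB was listed (2.21 to 4.86 CPM over the 6 libraries), and of 10 macrophage markers only CD68 (9.87 to 13.4 CPM), and the other 9 markers of each of these cell types were not among the listed genes. RNA levels in bulk cells cannot tell fewer expressing cells from less RNA per cell.

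HMOX1, the inducible heme oxygenase, was at 58.7 and 59.7 CPM with DMSO, at 446 and 429 CPM with CCF642, and at 1278 and 1234 CPM with CCF642-34. The 3 groups were far apart with no overlap. The mean level with CCF642 was 7.39-fold that with DMSO, the mean with CCF642-34 was 21.2-fold that with DMSO, and the mean with CCF642-34 was 2.87-fold that with CCF642. These levels rest on 1350 and 1278 reads with DMSO and on 36373 and 34294 reads with CCF642-34. Ordered by fitted log2 fold change, HMOX1 stood in place 19 of 11048 genes with CCF642 (3.00), in place 2 with CCF642-34 (4.47), and in place 1 for CCF642-34 against CCF642 (1.47).

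HMOX2, the constitutive heme oxygenase, was at 40.2 and 41.3 CPM with DMSO, at 30.8 and 32.8 CPM with CCF642, and at 37.6 and 39.9 CPM with CCF642-34. Both CCF642 libraries were below all others. On the scale used for all tests, log2(TMM-scaled CPM + 1) fitted by limma with Benjamini-Hochberg adjustment over the 11048 genes, HMOX2 fell with CCF642 by 0.22 (SE 0.08, adjusted p = 0.0119) and did not pass the test with CCF642-34 (log2 fold change 0.02, adjusted p = 0.872). It was higher with CCF642-34 than with CCF642 by 0.24 (95% interval 0.08 to 0.39, adjusted p = 0.0148). The fall with CCF642 was not called without DMSO replicate 2 (log2 fold change −0.20, adjusted p = 0.0927) or without CCF642 replicate 1 (−0.17, adjusted p = 0.0804), and the difference between the compounds was not called without CCF642 replicate 1 (0.19, adjusted p = 0.0884) or CCF642-34 replicate 2 (0.20, adjusted p = 0.131), nor by DESeq2 on recovered reads (0.23, adjusted p = 0.0526). Exons of HMOX2 share bases with NMRAL1 on the opposite strand, and the strand setting of the counting is not given in the sources used here.

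BLVRA, the reductase for the main adult isomer of biliverdin, was at 26.7 and 25.9 CPM with DMSO, at 17.7 and 18.3 CPM with CCF642, and at 23.9 and 24.6 CPM with CCF642-34. BLVRA fell with CCF642 (log2 fold change −0.40, SE 0.09, adjusted p = 0.000234), and with CCF642-34 the difference from DMSO was −0.03 (95% interval −0.21 to 0.16, adjusted p = 0.831). The second reductase, BLVRB, which also acts on flavins, was at 11.53 and 11.45 CPM with DMSO, at 10.6 and 10.4 CPM with CCF642, and at 15.2 and 14.5 CPM with CCF642-34. BLVRB rose with CCF642-34 (log2 fold change 0.43, SE 0.12, adjusted p = 0.00171), whereas with CCF642 its log2 fold change was 0.001 (95% interval −0.23 to 0.24, adjusted p = 0.994). Both reductases were higher with CCF642-34 than with CCF642, BLVRA by 0.37 (95% interval 0.18 to 0.56, adjusted p = 0.00148) and BLVRB by 0.42 (0.19 to 0.66, adjusted p = 0.00388), and the latter call was lost without CCF642-34 replicate 1 (0.39, adjusted p = 0.0578).

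**Figure D1:**
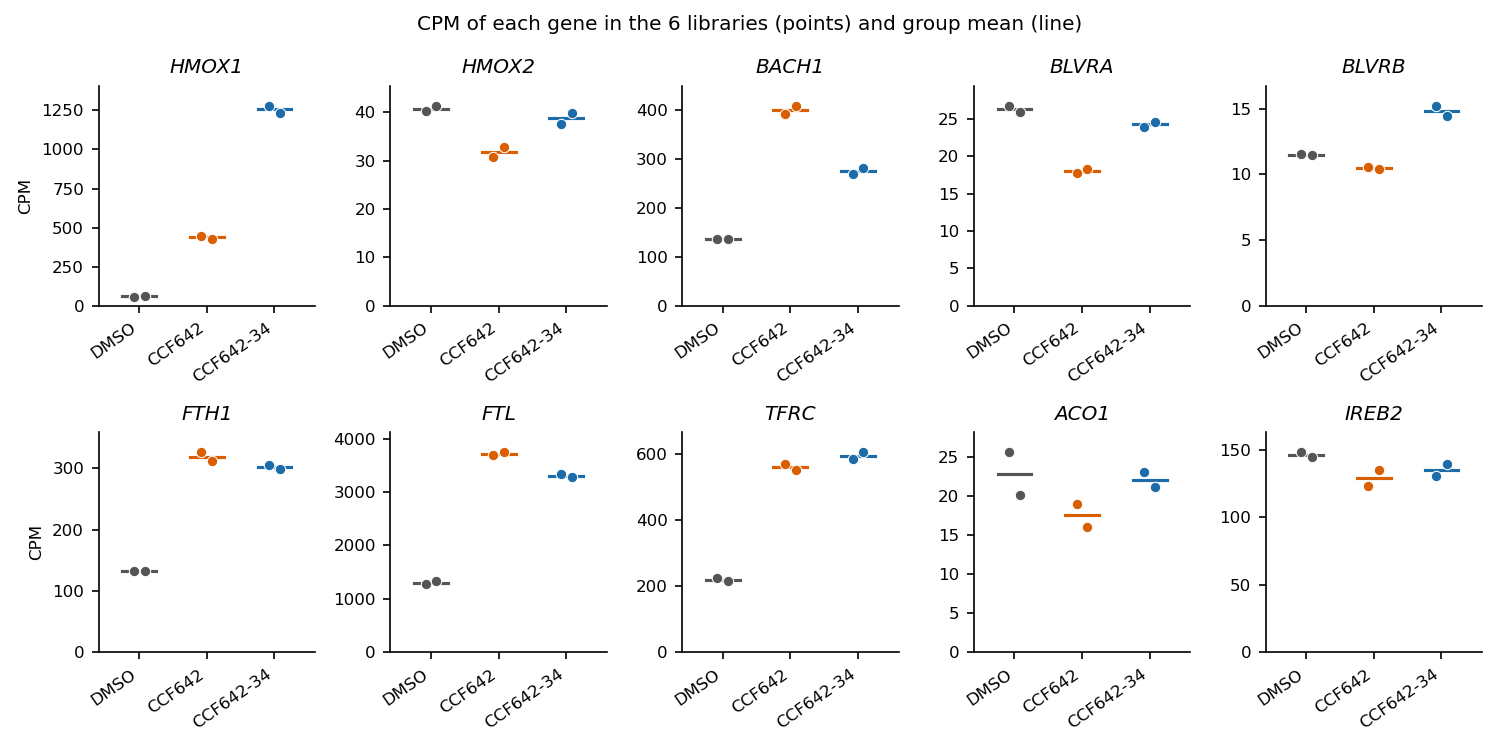
CPM of the 10 genes in the 6 libraries, on the y axis of each panel from 0, with a point for each library and a line at the mean of the 2 libraries of a group. HMOX1 has group means of 59.2, 438 and 1256 in the order DMSO, CCF642 and CCF642-34, while BACH1 is highest with CCF642 (399) and intermediate with CCF642-34 (274).

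BACH1, the repressor of HMOX1, was at 136.5 and 136.2 CPM with DMSO, at 390.0 and 407 CPM with CCF642, and at 268 and 280.4 CPM with CCF642-34. The groups did not overlap, and their order differed from that of HMOX1, since BACH1 was highest with CCF642. BACH1 rose with CCF642 (log2 fold change 1.67, SE 0.04, adjusted p = 2.57e-34) and with CCF642-34 (1.09, SE 0.04, adjusted p = 1.96e-26), and it was lower with CCF642-34 than with CCF642 by 0.58 on the log2 scale (95% interval of the difference −0.67 to −0.49, adjusted p = 2.68e-15). The mRNA of the repressor and that of its target were therefore both higher than with DMSO after either compound, and in the comparison of the compounds HMOX1 was higher and BACH1 lower with CCF642-34. The ratio of mean CPM to that with DMSO was 2.92 for CCF642 and 2.01 for CCF642-34.

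Of the 250 bases before the start of transcription in the RefSeq promoter table (GRCh38.p14), 1 of 3 windows of BACH1 held the core shared by AP-1 and MAF factors, TGACTCA, read on either strand. It is shown because small MAF proteins are the DNA partners of BACH1, with the match, TGAGTCA, in capitals and its first base 48 bases before the start.
BACH1 promoter, chr21:29298672-29298921, plus strand: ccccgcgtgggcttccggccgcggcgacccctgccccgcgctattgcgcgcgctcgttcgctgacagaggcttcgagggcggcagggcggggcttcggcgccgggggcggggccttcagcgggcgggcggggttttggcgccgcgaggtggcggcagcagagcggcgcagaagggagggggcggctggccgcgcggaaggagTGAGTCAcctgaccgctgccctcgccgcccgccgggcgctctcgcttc
This core was found in 4.2% of 35116 windows of the same length. The other motifs searched on both strands were TGACNNNGC (the antioxidant response element core, 10.9% of windows, which can overlap TGACTCA), TGACGTCA (the cAMP response element, 1.65%) and CACGTG (the E-box, 6.34%). Among the windows of the other members in the table (HMOX2, BLVRA, BLVRB, FTL, TFRC, ACO1 and IREB2) the only match was CACGTG in HMOX2, beginning 28 bases before the start. HMOX1 and FTH1 had no window in the table and were not searched, nor was sequence farther upstream of any member. A match describes the letters of the window and is not evidence of binding.

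The partners and rivals of BACH1 were described from a list of 11 genes, of which 10 were listed. With CCF642, 6 rose, 3 fell and 1 did not pass the test, beside 31.8% of all genes called higher and 31.3% called lower. With CCF642-34 the counts were 7, 1 and 2, beside 29.7% of all genes higher and 27.9% lower. MAFF, a small MAF protein, was at 16.0 and 16.8 CPM with DMSO, at 92.4 and 89.0 CPM with CCF642, and at 77.3 and 72.2 CPM with CCF642-34 (log2 fold changes 2.53 and 2.21, adjusted p = 2.54e-33 and 1.13e-30). The other small MAF genes went in different directions. MAFG rose with both compounds (log2 fold changes 0.995 and 0.986) and MAFK fell with both (−0.54 and −0.50). NFE2L2, which encodes NRF2, was at 78.9 and 74.8 CPM with DMSO, at 190.3 and 198.7 CPM with CCF642, and at 151.9 and 158.4 CPM with CCF642-34, and so ran in the same order as BACH1. NFE2L2 and MAFF were lower with CCF642-34 than with CCF642 by 0.37 (adjusted p = 1.02e-07) and by 0.32 (adjusted p = 0.000298) on the log2 scale.

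NFE2L1, a relative of NRF2, rose with both compounds (1.17 each, adjusted p = 1.66e-30 and 2.38e-30), as did BACH2, the B-cell paralogue of BACH1 (1.25 and 1.17, adjusted p = 1.2e-22 and 3.22e-21). KEAP1, the adaptor through which NRF2 is degraded, rose by 0.25 and 0.26. FBXO22, a ubiquitin ligase subunit that targets BACH1, fell with CCF642 by 0.37 (adjusted p = 0.000272), and with CCF642-34 its difference from DMSO was −0.16 (adjusted p = 0.122).

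The ferritin chains rose with both compounds. FTH1, the heavy chain that oxidises iron on entry, was at 132.67 and 132.74 CPM with DMSO, at 326 and 312 CPM with CCF642, and at 305 and 299 CPM with CCF642-34. Its log2 fold change was 1.39 with CCF642 (SE 0.04, adjusted p = 5.27e-31) and 1.27 with CCF642-34 (SE 0.04, adjusted p = 3.56e-29). FTL, the light chain that supports the mineral core, was at 1278 and 1328 CPM with DMSO, at 3687 and 3740 CPM with CCF642, and at 3331 and 3273 CPM with CCF642-34, with log2 fold changes of 1.64 (adjusted p = 1.41e-38) and 1.43 (adjusted p = 8.57e-36). For both chains every treated library was above every DMSO library.

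Both chains were slightly lower with CCF642-34 than with CCF642. FTL differed by −0.21 (95% interval −0.28 to −0.15, adjusted p = 1.99e-06) and FTH1 by −0.12 (−0.21 to −0.03, adjusted p = 0.0276). The call for FTH1 was lost without CCF642 replicate 1 (−0.09, adjusted p = 0.134), CCF642-34 replicate 1 (−0.14, adjusted p = 0.0648) or CCF642-34 replicate 2 (−0.10, adjusted p = 0.174), and with library size as the only scaling (adjusted p = 0.168). GENCODE 29 holds 25 pseudogene copies of FTH1 and 16 of FTL, of which 0 were listed, so the counts of both are uncertain as to how reads shared with the copies were assigned. Exons of FTH1 also share bases with BEST1 on the opposite strand.

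TFRC, which brings transferrin-bound iron into the cell, rose alongside ferritin. It was at 223 and 215 CPM with DMSO, at 569 and 550.0 CPM with CCF642, and at 584 and 603 CPM with CCF642-34, with log2 fold changes of 1.48 (SE 0.04, adjusted p = 7.56e-34) and 1.52 (SE 0.04, adjusted p = 4.58e-34). The treated libraries were all above those with DMSO. The difference between the compounds was 0.04 (95% interval −0.04 to 0.12, adjusted p = 0.459).

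SLC40A1, which encodes ferroportin, the iron exporter, moved the other way. It was at 6.57 and 8.74 CPM with DMSO, at 1.31 and 0.841 CPM with CCF642, and at 2.14 and 2.81 CPM with CCF642-34. The gene fell with both compounds (log2 fold changes −1.96, SE 0.19, adjusted p = 1.54e-12, and −1.23, SE 0.19, adjusted p = 2.94e-07). It was higher with CCF642-34 than with CCF642 by 0.73 (95% interval 0.34 to 1.11, adjusted p = 0.00252), a call lost without CCF642-34 replicate 2 (0.59, adjusted p = 0.0764). At such low levels the pseudocount of 1 understates the change.

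The iron-responsive elements of these mRNAs are printed because they are the sequences through which iron is known to act on ferritin, TFRC and ferroportin. A hairpin was searched for in the longest protein-coding transcript of each gene (GENCODE 29, GRCh38), as an unpaired C, then 5 bases, the loop CAGTG with A, C or T after it, and 5 bases that pair with the first 5, with G-T pairs allowed. The capitals mark the 6 loop bases.
FTH1, 5′ UTR, chr11:61967573-61967602, minus strand: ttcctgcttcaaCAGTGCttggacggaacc
FTL, 5′ UTR, chr19:48965335-48965364, plus strand: ctcttgcttcaaCAGTGTttggacggaaca
TFRC, 3′ UTR, chr3:196050978-196051007, minus strand: aattatcggaagCAGTGCcttccataatta
TFRC, 3′ UTR, chr3:196050574-196050603, minus strand: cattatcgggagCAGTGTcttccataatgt
TFRC, 3′ UTR, chr3:196050509-196050538, minus strand: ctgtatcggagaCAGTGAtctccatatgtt
TFRC, 3′ UTR, chr3:196050462-196050491, minus strand: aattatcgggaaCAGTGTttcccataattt
SLC40A1, 5′ UTR, chr2:189580660-189580689, minus strand: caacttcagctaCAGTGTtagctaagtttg
The pattern was found in 3 of the 10 members and in 130 of 10881 listed genes with a protein-coding transcript (1.19%). Among the genes printed here, those with the element in the 5′ UTR did not share a direction, since FTH1 and FTL rose and SLC40A1 fell. TFRC, with 4 matches in the 3′ UTR, rose. For the other listed genes with a match, its place in the transcript was not recorded. The RNA levels measured here do not show translation, on which the 5′ element acts.

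ACO1 and IREB2, the proteins that bind these hairpins, showed small differences. ACO1, which is also the cytosolic aconitase when it holds an iron-sulfur cluster, was at 25.6 and 20.2 CPM with DMSO, at 19.0 and 16.1 CPM with CCF642, and at 23.1 and 21.2 CPM with CCF642-34, and the libraries of CCF642 and DMSO overlapped after TMM scaling. Its fall with CCF642 stood at the threshold (log2 fold change −0.23, SE 0.10, adjusted p = 0.0486), and it was lost under 6 of 15 alternatives, among them without DMSO replicate 1 (−0.07, adjusted p = 0.68), CCF642 replicate 2 (−0.12, adjusted p = 0.356), CCF642-34 replicate 1 (−0.23, adjusted p = 0.0645) or CCF642-34 replicate 2 (−0.23, adjusted p = 0.0716). ACO1 was higher with CCF642-34 than with CCF642 by 0.28 (95% interval 0.07 to 0.49, adjusted p = 0.0346), which was likewise lost without CCF642 replicate 2 (0.17, adjusted p = 0.269), CCF642-34 replicate 1 (0.22, adjusted p = 0.267) or CCF642-34 replicate 2 (0.35, adjusted p = 0.0706), and by DESeq2 on recovered reads (0.28, adjusted p = 0.123).

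IREB2, the iron regulatory protein that is itself degraded when iron is plentiful, was at 148 and 145 CPM with DMSO, at 124 and 135 CPM with CCF642, and at 131 and 139 CPM with CCF642-34. The log2 fold changes were −0.05 (95% interval −0.15 to 0.06, adjusted p = 0.459) with CCF642 and −0.03 (−0.13 to 0.08, adjusted p = 0.684) with CCF642-34. With library size as the only scaling, IREB2 was called lower with CCF642 (−0.18, adjusted p = 0.00238), on a scale on which the median of all genes was −0.131 with CCF642 and −0.0781 with CCF642-34.

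Of the 9 members tested, 4 rose (BACH1, FTH1, FTL and TFRC), 3 fell (HMOX2, BLVRA and ACO1) and 2 did not pass the test with CCF642, beside 31.8% of all genes called higher and 31.3% called lower. With CCF642-34, 5 rose (the same 4 and BLVRB), 0 fell and 4 did not pass, beside 29.7% of all genes higher and 27.9% lower. Since so many genes were called, these counts are not a result particular to the members. The 4 genes that rose with both compounds also met a fold change of 2 with an unadjusted p under 0.05, which 4.5% of all genes met upward with CCF642 and 2.59% with CCF642-34. The median log2 fold change of the 9 was 0.001 with CCF642 and 0.43 with CCF642-34, beside −0.01 and 0.01 over all genes. The comparisons with DMSO share the DMSO libraries.

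For CCF642-34 against CCF642, the only pair of compounds, at the same dose and time, 4 of the 9 were higher (HMOX2, BLVRA, BLVRB and ACO1), 3 were lower (BACH1, FTH1 and FTL) and 2 did not pass the test (TFRC and IREB2), beside 15.9% of all genes higher and 17.4% lower. Without CCF642-34 replicate 1 or without CCF642-34 replicate 2, fewer of the 9 were called, as were fewer of all genes. The calls of BACH1, FTL and BLVRA held under each of the 15 alternatives run, and for IREB2 the difference between the compounds was 0.02 (95% interval −0.09 to 0.12, adjusted p = 0.819).

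**Figure D2:**
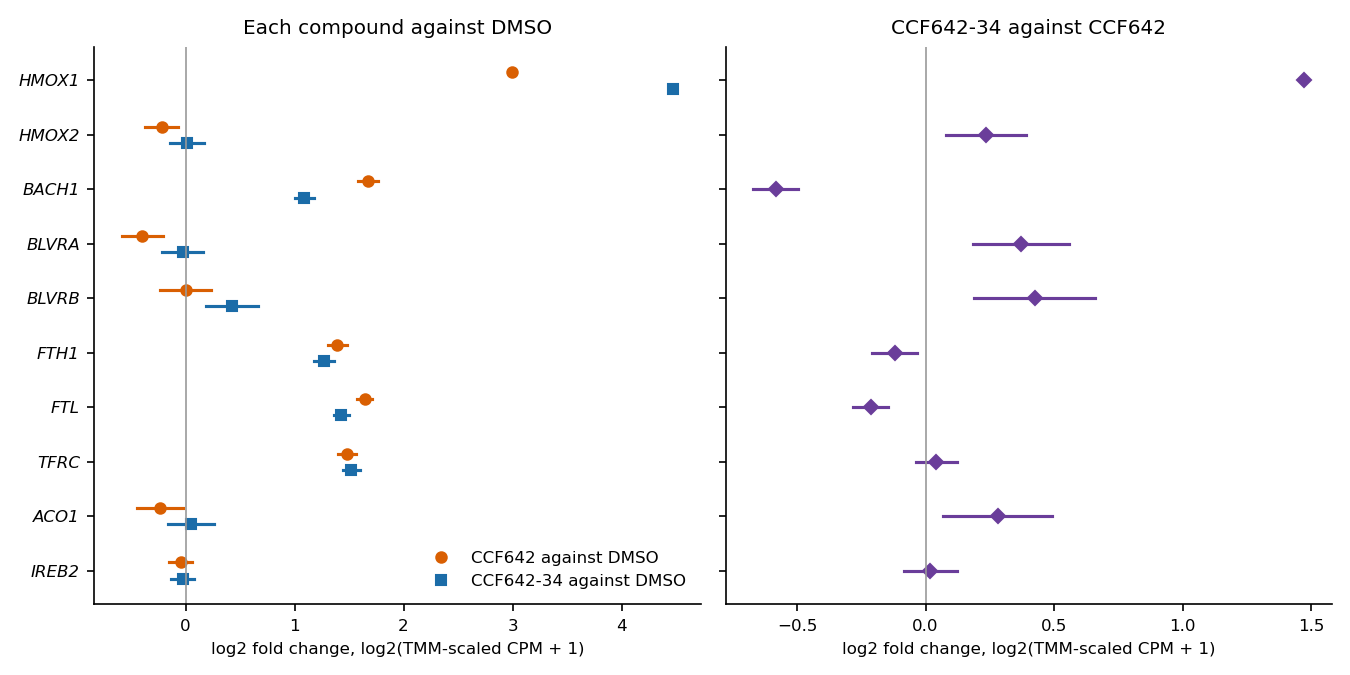
Log2 fold changes of the 10 genes on the log2(TMM-scaled CPM + 1) scale, for each compound against DMSO (left) and for CCF642-34 against CCF642 (right), with 95% limma intervals as bars except for HMOX1, which is described without a test. BACH1 lies at 1.67 and 1.09 on the left and at −0.58 on the right, whereas TFRC lies at 1.48 and 1.52 and at 0.04.

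Divided by the exon length of each gene in GENCODE 29, which allows levels to be compared between genes, FTL was the most abundant member in every group, at 1484 ± 40 CPM per kb with DMSO, 4230 ± 43 with CCF642 and 3761 ± 47 with CCF642-34 (SD, n = 2). With DMSO, FTH1 (82.1 CPM per kb), TFRC (41.2) and HMOX1 (32.5) followed, then BACH1 (23.3), BLVRA (22.5), IREB2 (15.4), HMOX2 (12.8), BLVRB (11.1) and ACO1 (3.03), and no neighbours in this order overlapped. HMOX1 moved from place 4 to place 2 with either compound, at 240.2 CPM per kb with CCF642 and 689 CPM per kb with CCF642-34. FTH1 was then below it, at 197 and 187 CPM per kb. The places of FTH1 and FTL are uncertain, since how reads shared with their pseudogene copies were assigned is not known. Below the fifth place, BLVRB stood above HMOX2 with CCF642, with libraries that overlapped, and with CCF642-34 it stood above both HMOX2, with libraries apart, and IREB2, with libraries that overlapped.

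**Figure D3:**
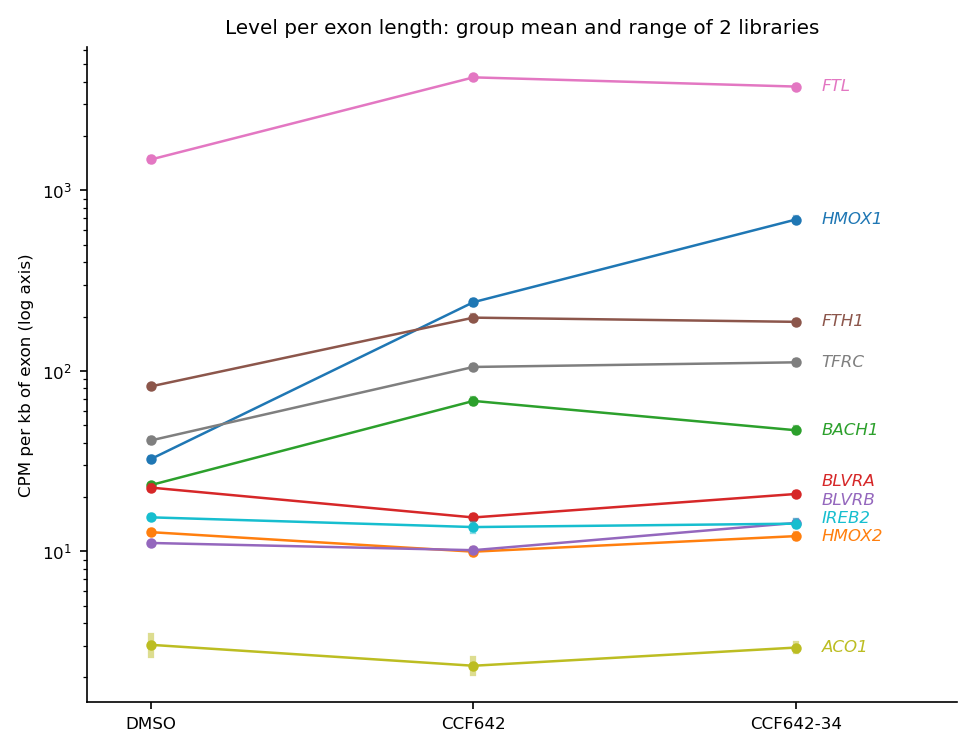
Level of each gene as CPM per kb of exon (log axis) in the 3 groups, with points at the mean and bars over the range of the 2 libraries. HMOX1 rises from 32.5 to 240.2 and 689 CPM per kb and crosses TFRC and FTH1, while FTL stays highest. The levels of FTH1 and FTL are uncertain as to reads shared with their pseudogene copies.

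The other genes came from 7 lists of 96 genes, of which 81 were listed. In the 5 lists of heme and iron metabolism, 57 of 71 genes were listed, and 15 rose, 23 fell and 19 did not pass the test with CCF642, whereas with CCF642-34 the counts were 17, 17 and 23. As shares of the 57 these are 26.3% higher and 40.4% lower with CCF642, beside 31.8% and 31.3% of all genes, and 29.8% higher and 29.8% lower with CCF642-34, beside 29.7% and 27.9% of all genes. In the lists of BACH1 and NRF2 partners and NRF2 target genes, 24 of 25 genes were listed, and 16 rose and 6 fell with CCF642 and 17 rose and 3 fell with CCF642-34. As shares of the 24 these are 66.7% higher and 25% lower with CCF642, and 70.8% higher and 12.5% lower with CCF642-34. The counts of each list below are to be read beside the same shares of all genes. Of the 60 and 54 calls against DMSO over the 7 lists, 47 and 42 were kept under every alternative. Between the compounds, 15 of 31 calls were kept and 16 were lost under at least 1 alternative.

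Heme synthesis, with 8 of 9 genes listed, had 1 gene higher and 4 lower with CCF642, and 3 higher and 2 lower with CCF642-34. ALAD, which makes porphobilinogen, fell with both (log2 fold changes −0.67 and −0.47, adjusted p = 1.33e-08 and 2.25e-05), as did CPOX, a later mitochondrial step (−0.46 and −0.45, adjusted p = 3.4e-07 and 8.16e-07). ALAS1, the rate-limiting first step outside erythroid cells, was called higher by 0.25 with both, but not without DMSO replicate 1 (0.19 in both, adjusted p = 0.0699 and 0.0724) and, for CCF642, not without CCF642 replicate 2 (0.17, adjusted p = 0.0552) or with library size alone (0.11, adjusted p = 0.146). FECH, which inserts the iron into the ring, was higher with CCF642-34 than with CCF642 (0.34, adjusted p = 0.000358). The median of the list was −0.187 with CCF642 and 0.0651 with CCF642-34.

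Among the 8 listed genes of heme transport and binding, 1 rose and 3 fell with CCF642, and 2 rose and 3 fell with CCF642-34. PGRMC1, a heme-binding membrane protein, fell by 0.81 and by 0.53 (adjusted p = 5.76e-12 and 3.22e-07). FLVCR1, a heme exporter, was at −0.32 and −0.52 (adjusted p = 0.00782 and 3.95e-05), and its call with CCF642 was lost without DMSO replicate 2 (−0.25, adjusted p = 0.125) or CCF642 replicate 2 (−0.24, adjusted p = 0.0705). POR, the electron donor of heme oxygenase, rose with CCF642-34 by 0.34 (adjusted p = 7.83e-06) and was at 0.20 with CCF642 (adjusted p = 0.00445), a call lost without DMSO replicate 2 (0.15, adjusted p = 0.127) and with library size alone (0.07, adjusted p = 0.314).

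Iron transport and storage outside the members had 11 of 18 genes listed, with 4 higher and 4 lower with CCF642, and 3 higher and 4 lower with CCF642-34. Beside SLC40A1, STEAP3, a reductase of endosomal iron, fell with both compounds (−0.57 and −0.42, adjusted p = 3.39e-05 and 0.00194). NCOA4, the receptor that takes ferritin to lysosomes, rose by 0.19 and 0.23 (adjusted p = 7.88e-05 and 6.86e-06, the former call lost with library size alone, 0.06, adjusted p = 0.204), PCBP1, an iron chaperone that loads ferritin, by 0.22 and 0.26, and SLC39A14, an importer of iron and zinc, by 0.28 and 0.23. Apart from that of SLC40A1, no change in this list reached 2-fold.

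Of 6 listed genes of iron regulation, 3 rose and 2 fell with each compound. FBXL5, the ligase subunit that degrades IREB2 protein, rose by 0.48 and 0.43 (adjusted p = 1.34e-07 and 1.23e-06). HIF1A rose by 0.68 and 0.24 (adjusted p = 8.77e-12 and 0.00259) and EPAS1, which encodes HIF-2α and carries an iron-responsive element, fell by 0.46 and 0.61 (adjusted p = 0.00208 and 7.39e-05). HIF1A was lower with CCF642-34 than with CCF642 by 0.43 (adjusted p = 2.87e-06). Its call with CCF642-34 against DMSO was lost with library size as the only scaling (0.16, adjusted p = 0.0514).

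Iron-sulfur cluster assembly, with 24 of 27 genes listed, had 6 higher and 10 lower with CCF642, and 6 higher and 6 lower with CCF642-34. Of all genes, 31.8% were higher and 31.3% lower with CCF642, and 29.7% higher and 27.9% lower with CCF642-34. HSPA9, the mitochondrial HSP70 that also serves protein import, rose by 1.12 and 1.0 (adjusted p = 1.76e-30 and 3.19e-28), and ABCB6, a porphyrin transporter, by 0.73 and 0.76 (adjusted p = 6.71e-15 and 2.51e-15). NFS1, the cysteine desulfurase that supplies the sulfur, fell by 0.83 and 0.79 (adjusted p = 2.66e-09 and 1.43e-08), and GLRX5, a cluster carrier, by 0.54 and 0.34 (adjusted p = 1.03e-06 and 0.00144). NFS1 and GLRX5 thus moved in the opposite direction to the general chaperone HSPA9, while other assembly genes rose. ISCA1 rose by 0.27 with each compound (adjusted p = 0.000103 and 0.000107). NFU1 rose by 0.27 and 0.58 (adjusted p = 0.0263 and 6.81e-06), the former call lost with library size alone (0.14, adjusted p = 0.242). IBA57 rose with CCF642 (0.52, adjusted p = 2.24e-07), and with CCF642-34 it was at 0.12 (adjusted p = 0.219).

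All 14 NRF2 target genes were listed, and 10 rose and 3 fell with CCF642, and 10 rose and 2 fell with CCF642-34, with median log2 fold changes of 1.01 and 1.07. OSGIN1, among those that rose, was at 1.22 and 1.45 CPM with DMSO. It reached 1.5 CPM, the limit of the matrix, only in libraries with a compound (6.92 to 7.81 CPM), so its rise is no independent result. OSGIN1 is also in the totals over the lists. SLC7A11, the cystine importer, was at 27.5 and 22.0 CPM with DMSO, at 247 and 238 CPM with CCF642, and at 201.3 and 203.3 CPM with CCF642-34 (log2 fold changes 3.4 and 3.1, adjusted p = 7.82e-41 and 7.48e-39). SQSTM1 (2.41 and 1.90) and SLC3A2 (2.30 and 2.14) also rose, and PRDX1 fell (−0.49 and −0.39). For SLC7A11 and SQSTM1 the order of the compounds was opposite to that of HMOX1. They were lower with CCF642-34 than with CCF642 by 0.31 (adjusted p = 0.000105) and by 0.51 (adjusted p = 4.33e-17). Of the 14, that comparison called 2 upward and 5 downward, beside 15.9% of all genes higher and 17.4% lower. Among other alternatives, ME1 lost its call by DESeq2 on recovered reads (0.17, adjusted p = 0.102). TXNRD1 lost its call with library size alone (−0.08, adjusted p = 0.117), among others, and SLC3A2 without CCF642-34 replicate 2 (−0.13).

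**Figure D4:**
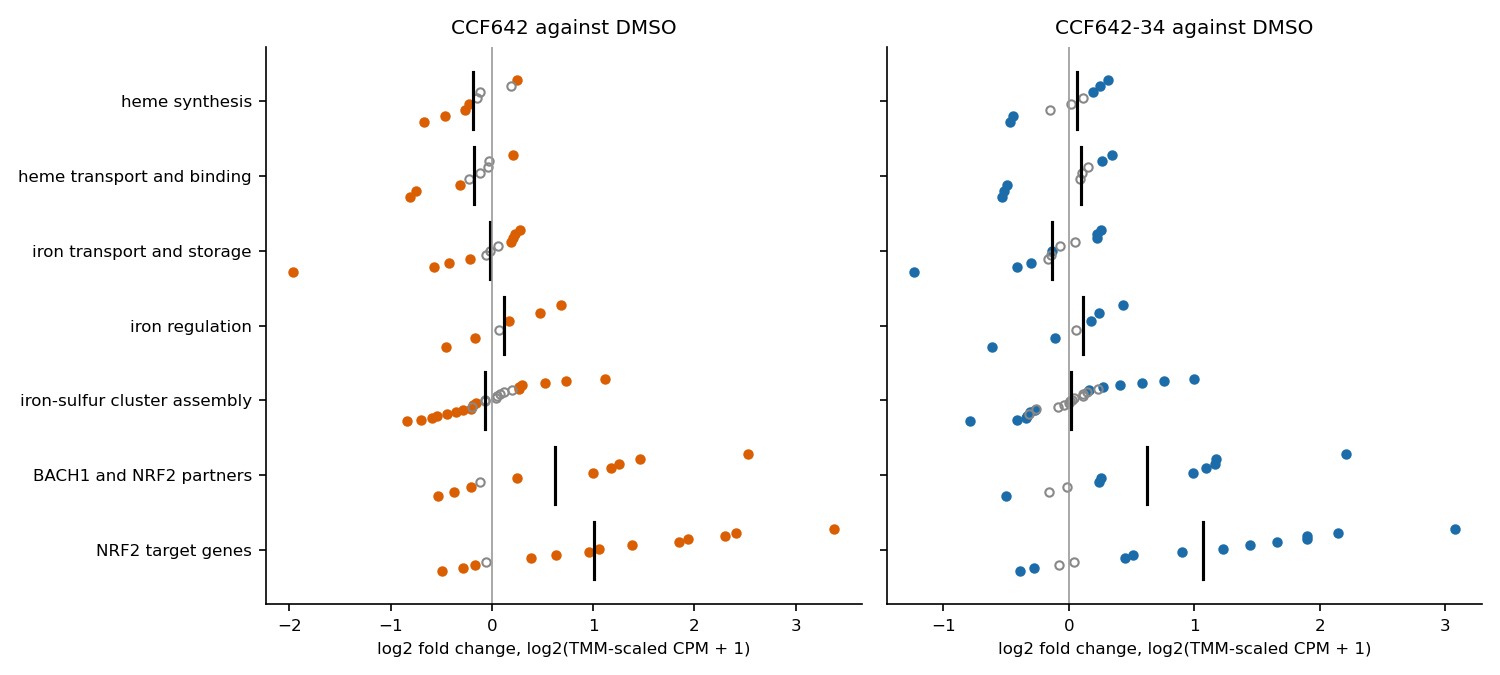
Log2 fold changes, on the log2(TMM-scaled CPM + 1) scale, of the 81 listed genes of the 7 lists with CCF642 (left) and CCF642-34 (right), with filled points for an adjusted p under 0.05, open grey points for the others, and a black line at the median of each list. The medians of the NRF2 target genes (1.01 and 1.07) and of the BACH1 and NRF2 partners (0.623 and 0.623) lie to the right of 0, and SLC40A1 is the point farthest to the left.

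Genes whose pattern was most like that of a member were sought over the 6 libraries, as the smallest Euclidean distance between log2 values centred on the DMSO mean. For HMOX1 no gene was close. HMOX1 was chosen by its fold changes and its difference between the compounds in these same libraries, so this is a description only. The nearest were TRIB3 and TSC22D3 (both at a distance of 1.72), DDIT3 (1.73), CEBPB (1.90) and ADM2 (1.94), and TRIB3, the nearest, had log2 fold changes of 4.20 and 4.33 against 3.00 and 4.47 for HMOX1. BACH1 had near neighbours in BCAS2 (0.123), SKIL (0.14), HERPUD1 (0.145), TMEM263 (0.147) and RAB11FIP1 (0.155), each higher with CCF642 than with CCF642-34. The nearest to TFRC were HSPA13 (0.0746), ATF4 (0.105), MTHFD2 (0.149), SEC24D (0.151) and RNF41 (0.162), at 1.44 to 1.57 with CCF642 and at 1.45 to 1.57 with CCF642-34. These distances describe 6 libraries of 3 groups.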

How the data were processed

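RNA sequencing of poly(A) RNA from 6 MM1.S libraries was analysed. The submitters' processing notes name STAR, hg19, edgeR 3.24.3 and limma 3.38.3, and the annotation, the counting tool and its strand setting are not given in the sources used here. The authors deposited CPM values, a unit read from the values, in which reads counted on a gene are scaled to a common total per library, for genes that reached 1.5 CPM in at least 1 library. The listed genes held 99.9% of that total. The table of the whole series and the single-library files held the same 66288 values. Whole reads were recovered from the CPM (100% of values within 0.05 reads of a whole number) and were used for alternatives only.

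Log2(TMM-scaled CPM + 1) of all 11048 genes was fitted with limma 3.58.1 (trend) in R 4.3.3, with TMM factors from edgeR 4.0.16 (0.957 to 1.05). The 3 groups were fitted together without a block, with 3 residual and 42.9 prior degrees of freedom. Tests were two-sided, and genes were called at a Benjamini-Hochberg adjusted p under 0.05 over all genes, with a 2-fold criterion beside it. The replicate numbers did not pair the libraries (correlations of replicate differences −0.00889, −0.0563 and 0.0467), and replicates differed by more than counting noise (mean chi-square of 2.3, 4.64 and 4.04 per gene).

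The members, the 7 gene lists and the markers were chosen with earlier results of these data known. The named genes were the 10 members, up to 3 of the largest increases and decreases of each list with either compound among called genes, and the 5 genes nearest to HMOX1, BACH1 and TFRC. Not all genes of that rule are reported here. MAFG, KEAP1, FECH, GLRX5, ISCA1, TXNRD1, ME1 and OSGIN1, which are outside it, were named after their values were seen. Exon lengths and transcripts came from GENCODE 29 (GRCh38) and promoter windows from RefSeq (GRCh38.p14), and no coordinate of the hg19 counting was used. Alternatives were DESeq2 1.42.0 size factors, library size alone, pseudocounts of 0.1 and 2, a mean CPM of at least 5, edgeR and DESeq2 on recovered reads, a replicate block, fits of 2 groups, and fits without each library. The scripts were tested on simulated data.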

Additional observations from a re-analysis of the deposited data

How the results depend on the processing

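Of 450 values of members under an alternative, 413 stayed the same, 20 lost a call, 1 gained a call, 14 changed sign and 2 moved. For the tested members, the same means an unchanged direction and side of the threshold. For HMOX1, which has no threshold, it means a shift below the spread of its replicates. The 2 that moved were HMOX1 with library size alone, with each compound against DMSO. The sign changes were all of differences that had not passed the test. With library size alone they were HMOX2 with CCF642-34 against DMSO (−0.07143), BLVRB with CCF642 (−0.1218) and ACO1 with CCF642-34 (−0.03991), and with a mean CPM of at least 5 that of BLVRB with CCF642 (−0.005445). Without a library in turn, HMOX2 with CCF642-34 ranged from −0.02007 to 0.05433, BLVRB with CCF642 from −0.004353 to 0.006862, ACO1 with CCF642-34 from −0.1174 to 0.2097, and IREB2 from −0.1144 to 0.02356 with CCF642, from −0.0662 to 0.01463 with CCF642-34 and from −0.05013 to 0.08781 between the compounds. HMOX1 was at 2.865 and 4.383 with library size alone.

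The members called between the compounds ranged from 4 to 7 without a library in turn, and the pathway genes called from 20 to 29, with 4 and 20 without CCF642-34 replicate 1 and also without CCF642-34 replicate 2. The genes called at 2-fold with CCF642-34 against DMSO were 428, and 668 by edgeR and 652 by DESeq2 on recovered reads. Between the compounds they were 34, and 95 with a pseudocount of 0.1, 21 at a mean CPM of at least 5, 114 by edgeR and 101 by DESeq2, and the cause was not tested. With library size alone, 34.8% of the genes called with CCF642 were higher, 38.6% with CCF642-34 and 61.8% between the compounds, in place of 50.4%, 51.6% and 47.8%, and for pathway genes 38.5%, 52.7% and 71.4% in place of 51.7%, 63% and 51.6%. At 2-fold, 52.1% and 53.6% were higher with CCF642 and CCF642-34, in place of 69.3% and 66.8%. With the replicate number as a block, 7, 5 and 7 members were called, as without it, and 7014, 6422 and 3802 of all genes, so the block moved no count of calls by over 1.5 times. A fit without a library leaves 1 library in a group, which is assumed to vary like the others, and 2 libraries a group limit what small differences such as those of ACO1 and HMOX2 can show.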
